A study of Callithrix jacchus with 71 samples.

Results

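The 8 genes described here mark radial glia or mature astrocytes. They were taken as a fixed list of symbols, chosen with earlier results of these data known. FABP7, SLC1A3, HOPX and PROM1 were set as the 4 radial glia genes, and ALDH1L1, AQP4, GFAP and S100B as the 4 mature astrocyte genes. All 8 have a row among the 23561 named genes of the deposited table. SLC1A3 is also used by astrocytes and S100B by other glia, so each kind is a usual assignment and not an exclusive one.

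Radial glia are the neural stem cells of the developing brain. They line the ventricle, send a long fibre to the brain surface, and give rise first to neurons and later to glia. Primates have in addition many outer radial glia away from the ventricle. Astrocytes arise late from the same lineage, and genes for water transport, glial filaments and folate metabolism come on as they mature.

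Marmoset cells were sorted one by one into wells and profiled by RamDA-seq, a full-length method that counts reads without molecular identifiers. The induced neural stem cell-like cells (iNSLCs) were 65 cells of E01F A2, a single clone sampled at passage 1. It had been raised in a naive-state medium (NSM) from dorsal skin fibroblasts of an embryonic marmoset given episomal vectors, whose basic set carries the human factors LIN28, L-MYC, KLF4, SOX2 and OCT4, a dominant-negative mouse Trp53 and EGFP, and which iNSLCs keep over later passages. They were set against pluripotent stem cells (PSCs), namely 4 ESCs of the No.40 line and 1 iPSC of the E01F A-2-2 line, which was derived from E01F iNSLCs by transfer to ESC medium (ESM). A single untransfected E01F fibroblast was the remaining cell. The labels name no separate cultures, so each group was taken as 1 culture, cells are not replicates of it, and every difference is given as a description without a test.

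The iNSLCs held 82268 to 695241 reads each and the PSC cells 134328 to 1003718, while the fibroblast held 1294430. Median reads were 268128 in iNSLCs and 464547 in PSC cells, and the median number of detected genes was 10781 and 15122. The part of this difference in detected genes in the comparisons below was not tested. Values are the normalized counts of the deposited table, in which 1 read is worth 0.441 to 2.84 in iNSLCs and 0.405 to 2.55 in PSC cells. Levels are compared between cells and not between genes, since transcript lengths were not used. Vimentin (VIM), an intermediate filament of radial glia, averaged 2771 in iNSLCs, 5.96 in PSC cells and 7161 in the fibroblast, so it parts iNSLCs from PSC cells only. All 8 pluripotent cell markers were lower by 4-fold or more in iNSLCs. The summed level of 9 fibroblast markers was 0 to 1094 in iNSLCs with a median of 81.9, 164 to 518 in PSC cells and 26737 in the fibroblast, in keeping with the labels. Of these 9, the collagen gene COL1A2 averaged 104 in iNSLCs, 0.704 in PSC cells and 11345 in the fibroblast, and its part in the members' values was not tested, while POSTN was at 0 in every iNSLC. The iNSLCs were also described apart by cell number, up to 56 and from 57 on, a division that had been drawn from the profiles and across which depth differed.

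FABP7, SLC1A3 and PROM1 were read in nearly every iNSLC, while the 4 astrocyte genes and HOPX were at 0 in most or all of them. Thus 3 of the 8 genes had a read in at least 50% of iNSLCs, against 44.6% of all named genes. ALDH1L1 and AQP4 had no read in any iNSLC, as had 5.4% of all named genes. Of the 3 genes that passed a mean of at least 1 over iNSLCs and PSC cells, only FABP7 was at least 4-fold higher in iNSLCs, against 5.33% of the 14045 genes compared, and none of the 3 was 4-fold lower, against 8.59%. With every cell scaled to the same total, these background shares were 6.68% higher and 6.13% lower, and the median log2 ratio of all compared genes was 0.11 in place of -0.16.

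**Figure D1:**
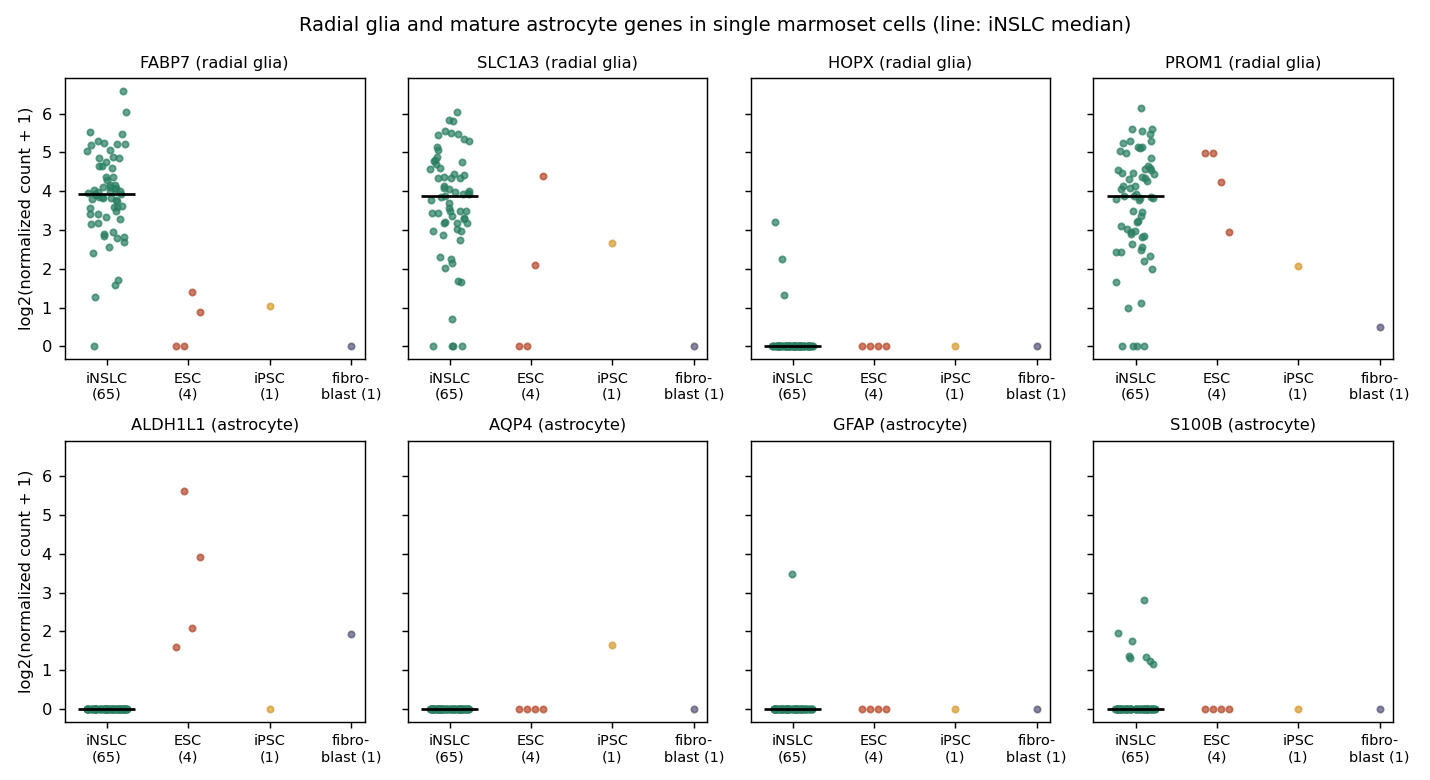
Level of each gene as log2(normalized count + 1) on the y axis, with 1 point per cell and the groups iNSLC (65), ESC (4), iPSC (1) and fibroblast (1) on the x axis; the line is the iNSLC median. FABP7, SLC1A3 and PROM1 spread over a wide range in iNSLCs around medians of 14.3, 13.8 and 13.7 normalized counts, whereas ALDH1L1 and AQP4 are at 0 in all 65 iNSLCs.

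FABP7 encodes brain lipid-binding protein, a fatty acid carrier of radial glia. It was at 0 in the lowest iNSLC, at a median of 14.3 and at 94.6 in the highest, cell 54, where 126 reads were counted. In the ESCs it was at 0, 0, 1.62 and 0.833, in the iPSC at 1.07 and in the fibroblast at 0. All but 2 iNSLCs lay above the highest PSC cell; the exceptions were cell 91 at 0 and cell 64 at 1.40, which is 1 read.

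The FABP7 mean was 18.5 ± 15.5 in iNSLCs (SD over 65 cells) and 0.704 ± 0.703 in PSC cells (SD over 5 cells). The log2 ratio of means with a pseudocount of 1 was 3.51, and 1.21% of the compared genes had a higher one. The mean was 26.2-fold higher in iNSLCs than in PSC cells before the pseudocount, but the PSC side rests on 5 reads (exact Poisson 95% interval 1.62 to 11.7) against 1332 reads in iNSLCs. Against the fibroblast, with no read and a floor of 3 reads, it was at least 15.2-fold higher. A read was found in 64 of 65 iNSLCs, or 98.5% (exact Clopper-Pearson 95% interval 91.7 to 99.96), and 62 of them held at least 2. After every cell was thinned to 134328 reads, which 57 iNSLCs allowed, FABP7 was found in 56 of 57 iNSLCs and in 0 of 5 PSC cells.

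SLC1A3 encodes a sodium-dependent glutamate transporter of radial glia and astrocytes, known as GLAST. It was at 0 in the lowest iNSLCs, at a median of 13.8 and at 65.1 in the highest, cell 55, where 135 reads were counted. The ESCs had 0, 0, 3.24 and 19.99, the iPSC 5.34 and the fibroblast 0. The groups overlapped widely, with 20 iNSLCs above ESC 14, the highest PSC cell, and 45 at or below it.

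Mean SLC1A3 was 17.5 ± 14.96 in iNSLCs and 5.72 ± 8.30 in PSC cells (SD, 65 and 5 cells), a log2 ratio of 1.46. ESC 14 alone held 24 of the 35 PSC reads, and without it the ratio was 2.56, past the 4-fold limit. Against the fibroblast, again at the floor of 3 reads, the mean was at least 14.4-fold higher in iNSLCs. The share of iNSLCs with a read was 93.8% (61 of 65, interval 85.0 to 98.3), with cells 33, 36, 61 and 96 at 0. At equal reads the gene was found in 54 of 57 iNSLCs and 2 of 5 PSC cells.

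PROM1 encodes prominin, a membrane protein at the apical surface of neuroepithelial cells that is also used to sort stem cells. It was at 0 in the lowest iNSLCs, at a median of 13.7 and at 69.3 in the highest, cell 35. The ESCs had 30.8, 30.6, 17.8 and 6.66, the iPSC had 3.21, and the fibroblast had 0.405, which is 1 read. The PSC range held 45 of the 65 iNSLCs, and 12 were above it.

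The PROM1 mean was 17.2 ± 14.5 in iNSLCs and 17.8 ± 12.9 in PSC cells (SD, 65 and 5 cells), so this gene did not part the neural from the pluripotent cells. Its log2 ratio was -0.05, and the sign turned with the scaling, to 0.26 with equal totals and 0.11 after thinning. Its mean in iNSLCs was 42.5 times the value in the fibroblast. Among iNSLCs 61 of 65 held a read, and cells 33, 40, 69 and 91 were at 0.

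HOPX, a homeodomain protein without DNA binding that marks outer radial glia in primates, was read in only 3 of 65 iNSLCs (4.62%, interval 0.962 to 12.9). It was at 1.48 in cell 44 with 2 reads, at 8.24 in cell 67 with 6 reads and at 3.79 in cell 71 with 2 reads. PSC cells and the fibroblast had no HOPX read, and the iNSLC mean of 0.208 was under the PSC floor of 0.648, so no fold is given. All 3 HOPX cells also held reads of FABP7, SLC1A3 and PROM1. SLC1A3 differed widely among them, at 55.6 in cell 44, 6.87 in cell 67 and 3.79 in cell 71.

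ALDH1L1, a folate-metabolising enzyme used as a general astrocyte marker, was the one gene with reads in most PSC cells and none in iNSLCs. All 65 iNSLCs were at 0, which allows a share of up to 4.62% (3 of 65 cells). The ESCs were at 2.02, 48.5, 3.24 and 14.2 with 5, 19, 6 and 17 reads, the iPSC was at 0, and the fibroblast was at 2.83 with 7 reads. The PSC mean of 13.6 was at least 220-fold higher than the iNSLC floor of 3 reads over the group. Among 11020 genes read in at least 4 PSC cells, 1.09% had no read in any iNSLC.

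The ALDH1L1 level in ESCs was uneven. ESC 11, the shallowest PSC cell with 134328 reads, had the highest value, and without it the log2 ratio of -3.87 became -2.55 and the mean of the other PSC cells was at least 78.5-fold higher than the iNSLC floor. At 134328 reads per cell the gene was found in 0 of 57 iNSLCs and 2 of 5 PSC cells. Because its mean over iNSLCs and PSC cells was 0.971, it fell just below the filter and is not among the genes counted as past 4-fold.

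AQP4, the water channel of astrocyte endfeet, was likewise at 0 in all 65 iNSLCs, with the same upper limit of 4.62%. Its only reads were 2 in the iPSC, at a value of 2.14. The ESCs and the fibroblast were at 0.

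GFAP, the intermediate filament of astrocytes and of primate radial glia, was read in 1 of 65 iNSLCs (1.54%, interval 0.0389 to 8.28). That was cell 68, at 10.2 with 5 reads. PSC cells and the fibroblast were at 0. The same cell held FABP7 at 10.2, SLC1A3 at 8.16 and PROM1 at 8.16, and it had no S100B read.

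S100B, a calcium-binding protein of astrocytes and other glia, was read in 8 of 65 iNSLCs (12.3%, interval 5.47 to 22.8). The values were 1.24 to 6.04, and 6 of the 8 cells rested on 1 read. Cell 80 held 5 of the 13 reads. PSC cells and the fibroblast had none. At equal reads S100B was found in 6 of 57 iNSLCs.

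Within single iNSLCs the radial glia genes outnumbered the astrocyte genes in 64 of 65 cells (98.5%). The radial glia genes with a read numbered 1 in 2 cells, 2 in 5 cells, 3 in 55 cells and all 4 in 3 cells. No astrocyte gene was read in 56 iNSLCs, and exactly 1 was read in 9 (13.8%, interval 6.53 to 24.7). The exception was cell 91, which held SLC1A3 at 14.2 and S100B at 2.37, with 1 gene of each kind. A read in at least 50% of iNSLCs was found for 3 of the 4 radial glia genes and 0 of the 4 astrocyte genes. Of all named genes, 44.6% had one.

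Summed over the 65 iNSLCs, the 4 radial glia genes had 3782 reads (Poisson interval 3662 to 3904) and the 4 astrocyte genes 18 reads (10.7 to 28.4). In the 5 PSC cells these sums were 172 and 49. Every PSC cell held exactly 1 astrocyte gene, ALDH1L1 in the ESCs and AQP4 in the iPSC. The numbers of both kinds were equal in 2 of the 5 PSC cells and in the fibroblast. Since neither the sums nor the numbers of genes with a read allow for transcript length, they are set beside each other per group and not as levels of the genes. PROM1, counted among the radial glia genes, had similar means in iNSLCs and PSC cells.

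The 9 iNSLCs with an astrocyte read overlapped the other iNSLCs in all 3 widely read radial glia genes. FABP7 was at 0 to 36.0 with a median of 10.2 in these 9 cells, against 1.40 to 94.6 with a median of 14.9 in the other 56. SLC1A3 had a median of 8.65 in the 9 cells and 14.0 in the others, and PROM1 had one of 8.16 in the 9 cells and 13.7 in the others. Of 16 further astrocyte genes with a row, the 9 cells held reads of 9 to 13, and the others of 7 to 12, with a median of 10 in both. The 9 cells had 128362 to 287102 reads, and the part of depth in these medians was not tested. All 9 were numbered 57 or above, and the other 29 cells of that set had medians of 12.9 for FABP7, 10.2 for SLC1A3 and 13.2 for PROM1.

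FABP7, SLC1A3 and PROM1 were read together in 58 of 65 iNSLCs. Another 5 cells held 2 of them, and cells 33 and 91 held only 1. FABP7 and SLC1A3 shared 60 cells, and SLC1A3 and PROM1 shared 58. As each gene was read in nearly all cells, these overlaps were largely fixed and say little of a link between the genes. GFAP and S100B never shared a cell, nor did HOPX and S100B, but with so few cells the products of their shares give only 0.123 and 0.369 shared cells.

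The levels of the 3 genes were compared over the same cells. Over 65 iNSLCs, Spearman's correlation coefficient was 0.152 for FABP7 and SLC1A3, 0.355 for FABP7 and PROM1 and 0.0332 for SLC1A3 and PROM1. Within the cells numbered 56 or below and 57 or above, the coefficient was 0.0293 and 0.0288 for FABP7 with SLC1A3, 0.242 and 0.370 for FABP7 with PROM1, and 0.114 and -0.132 for SLC1A3 with PROM1. All points share 1 culture, and the coefficient with the total reads of a cell was 0.285 for FABP7, 0.235 for SLC1A3 and 0.282 for PROM1. Only the coefficient of FABP7 with PROM1 came near the 99th percentile of all candidate genes, which was 0.372 for FABP7 and 0.370 for PROM1. These are descriptions of sparse counts, in which a weak correlation is no finding.

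**Figure D2:**
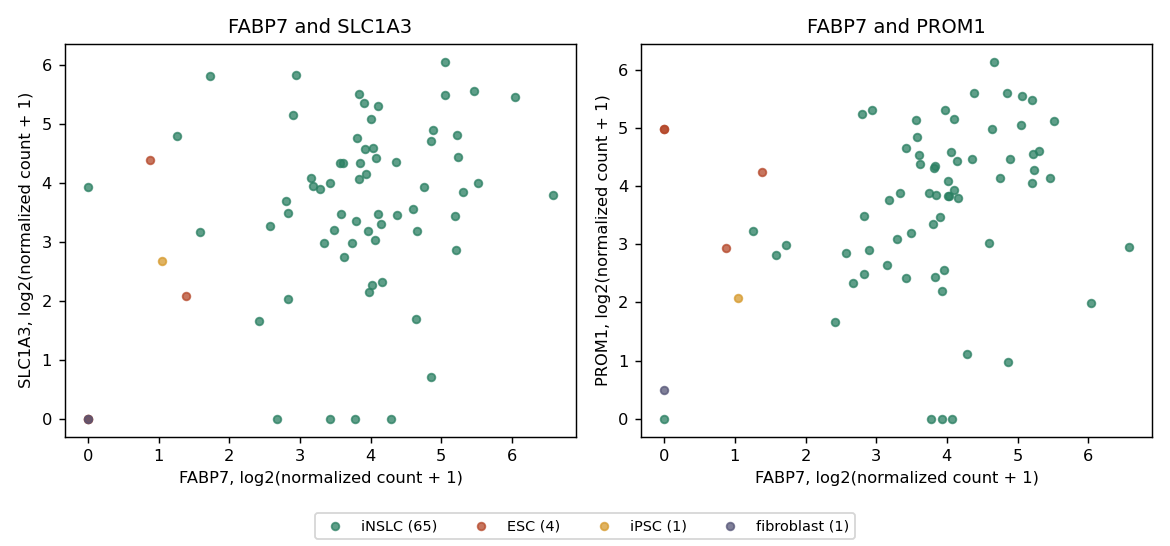
FABP7 on the x axis against SLC1A3 (left) and PROM1 (right) on the y axis, all as log2(normalized count + 1), with 1 point per cell coloured by group. The iNSLCs spread without a clear line (Spearman coefficient of 0.152 with SLC1A3 and 0.355 with PROM1), and the PSC cells sit at the low end of FABP7 while they share the PROM1 range of the iNSLCs.

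The highest cells differed by gene. Cell 54 led FABP7 at 94.6 and had SLC1A3 at 12.8 and PROM1 at 6.76, both below their medians. Cell 49 came next for FABP7 at 64.9, with SLC1A3 at 42.9 and PROM1 at 2.98. Cell 55 led SLC1A3 at 65.1 and was high in all 3, with FABP7 at 32.3 and PROM1 at 45.8. Cell 57 had SLC1A3 at 55.1 beside FABP7 at 2.30, which is 1 read.

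By cell number, the 3 widely read radial glia genes had higher means in the 27 iNSLCs numbered 56 or below than in the 38 numbered 57 or above. FABP7 averaged 26.4 in the lower-numbered and 12.8 in the higher-numbered cells, a log2 ratio of 0.98. SLC1A3 averaged 21.7 in the lower-numbered and 14.6 in the higher-numbered cells, a log2 ratio of 0.55. For PROM1 the means were 21.6 in the lower-numbered and 14.1 in the higher-numbered cells, a log2 ratio of 0.58. Among all 13603 genes compared this way, 47.9% had a higher mean in the lower-numbered cells, the median log2 ratio was -0.04, and 7.11% reached 1. None of the 3 genes reached 1, and the ranges of both sets overlapped for each. With every cell scaled to the same total FABP7 did reach it, at 1.16, as did 9.98% of 13704 genes.

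The lower-numbered cells were deeper, with a median of 357910 reads, against 208746 in the higher-numbered cells. They nevertheless held fewer detected genes, with a median of 10061, against 11333.5 in the higher-numbered cells. At equal reads the direction was the same for these 3 genes. FABP7 then had a mean of 12 reads in 24 lower-numbered and 5.97 in 33 higher-numbered cells. SLC1A3 had 10.1 reads in the lower-numbered and 6.36 in the higher-numbered cells, and PROM1 had 10.2 in the lower-numbered and 6.06 in the higher-numbered cells. Whether the division marks a plate, a sort or a state of the cells cannot be told apart from the labels.

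Of the rarely read genes, S100B was read only in higher-numbered cells, while HOPX had a read in similar shares of both sets. HOPX averaged 0.0550 in the lower-numbered and 0.317 in the higher-numbered cells, with 1 and 2 cells holding a read (3.70% and 5.26%). None of the 27 cells numbered 56 or below held S100B, which allows a share of up to 11.1% (3 of 27 cells), whereas 8 of the 38 numbered 57 or above did (21.1%). Of 403 genes read in exactly 8 iNSLCs, 3.47% had all of those cells among the higher-numbered ones. The single GFAP cell was also one of these. At equal reads S100B was found in 0 of 24 lower-numbered and in 6 of 33 higher-numbered cells.

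**Figure D3:**
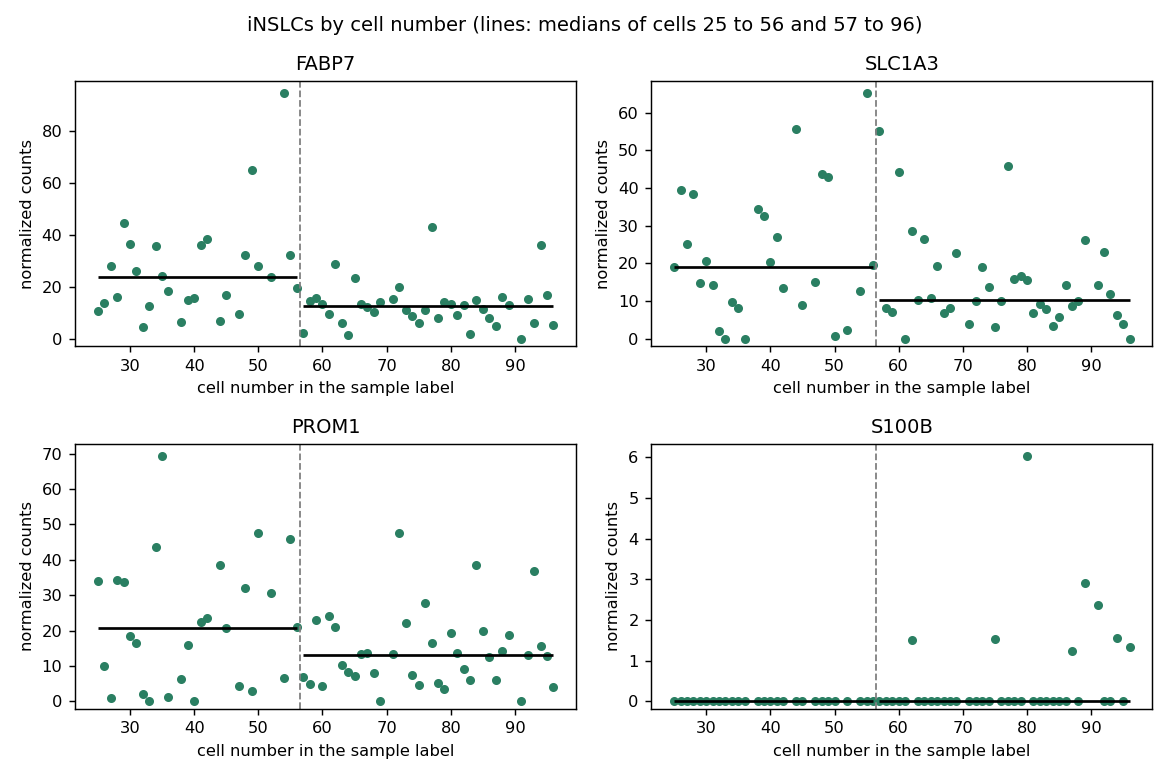
Normalized counts of FABP7, SLC1A3, PROM1 and S100B (y axes, linear) in 65 iNSLCs by the number each cell carries in its label (x axis); the dashed line parts cells numbered 56 or below from those numbered 57 or above, and horizontal lines are the medians of each set. The FABP7 median is 24.0 on the left and 12.6 on the right, and all 8 cells with an S100B read are on the right.

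The genes most like each member were sought over the 65 iNSLCs among 5792 named genes with a mean of at least 10 and a read in at least 50% of cells. For FABP7 they were CDK6 with a Spearman coefficient of 0.507, TBL1XR1 with 0.503 and PHF6 with 0.483, where the median coefficient over all candidates was -0.02. CDK6, a cyclin-dependent kinase of early G1 phase, also led for SLC1A3 with a coefficient of 0.434. It was followed there by RDX with 0.424 and SUPT20H with 0.420. Within the lower- and higher-numbered cells, CDK6 had coefficients of 0.410 and 0.431 with FABP7, and of 0.458 and 0.293 with SLC1A3. Other neighbours were lower in the higher-numbered cells: with FABP7, TBL1XR1 had 0.437 in the lower-numbered and 0.231 in the higher-numbered cells and PHF6 0.383 in the lower-numbered and 0.264 in the higher-numbered cells, and with SLC1A3, SUPT20H had 0.544 in the lower-numbered and 0.135 in the higher-numbered cells. RDX was at 0.277 in the lower-numbered and 0.403 in the higher-numbered cells.

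PROM1 had the closest neighbours of the 3. CEMIP2, a membrane protein that acts on hyaluronan, had a coefficient of 0.590, EFNA5, an ephrin ligand of axon guidance, 0.583, and DHX32, a helicase-like protein, 0.505. The coefficient for CEMIP2 was 0.609 in the lower-numbered and 0.626 in the higher-numbered cells. These genes head a list of 5792 and were named for it, so the values are descriptions.

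As a further description, 17 other radial glia and neuroepithelial genes were set beside the members. They were chosen with earlier results of these data known. SOX1, SOX2, PAX6 and MSI1 are among them, and the paper had reported these in iNSLCs. The counts below are thus no separate support for the members. All 17 were read in at least 50% of iNSLCs and passed the filter, and 11 were at least 4-fold higher in iNSLCs than in PSC cells and none 4-fold lower, beside the background of 5.33% and 8.59%. Their median log2 ratio was 3.39, against -0.16 over all compared genes. CRB2, a polarity protein of the apical membrane, averaged 405 in iNSLCs and 9.72 in PSC cells and had no read in the fibroblast. FABP7 was thus near the middle of this list, and PROM1 was near its lower end. The fibroblast held a read of 10 of the 17, among them VIM at 7161, against a mean of 2771 in iNSLCs. The 4-fold counts are against PSC cells only and do not part iNSLCs from the fibroblast.

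Other genes of this list did not reach 4-fold. NOTCH1, the receptor that keeps radial glia undifferentiated, averaged 353 in iNSLCs and 281 in PSC cells. Nestin (NES), a neural stem cell filament, averaged 261 in iNSLCs and 136 in PSC cells. LRRN1, a leucine-rich repeat membrane protein, averaged 35.7 in iNSLCs and 95.1 in PSC cells. PARD3, a polarity protein, had a log2 ratio of -0.60.

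Of 10 further outer radial glia genes, 9 passed the filter. Of these, 3 were at least 4-fold higher in iNSLCs and none 4-fold lower, beside the background of 5.33% and 8.59%. Their median log2 ratio was 1.38, or 1.30 with the 3 genes at 0 in PSC cells set to the floor. PTPRZ1, a receptor phosphatase, was read in all 65 iNSLCs and averaged 63.1 there, against 2.88 in PSC cells. Its ligand pleiotrophin (PTN) averaged 26.2 in iNSLCs and 6.54 in PSC cells. ITGB5, an integrin subunit, averaged 10.2 in iNSLCs, 31.4 in PSC cells and 340 in the fibroblast. TNC, an extracellular matrix protein named after its values were seen, was read in 7 of 65 iNSLCs at a mean of 0.687 and stood at 3762 in the fibroblast.

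Of 20 further astrocyte genes, GJB6, AGT, SLC14A1 and SERPINA3 were not analysed here, and 12 of the other 16 passed the filter. Of these 12, 1 was at least 4-fold higher in iNSLCs and none was 4-fold lower, beside 5.33% and 8.59% of all compared genes. The filter takes the mean over all cells, 65 iNSLCs and 5 PSC cells, so it tends to leave out genes low in iNSLCs. That none was lower is thus partly set by the filter. With the filter on the average of group means, 11.1% of all compared genes were 4-fold lower. The median log2 ratio of the 12 was 0.26. The sign of this median turned with the processing, to -0.14 with no filter and with the filter on the average of group means. It was -0.11 with a mean of at least 10, -0.50 with medians over cells and -0.03 without ESC 11. In iNSLCs numbered 56 or below it was -0.13, in those numbered 57 or above -0.16, and without the iNSLCs with the fewest genes -0.003. It stayed positive with a pseudocount of 10 (0.15), equal totals (0.49), thinning (0.49) and without each other PSC cell. A read was found in at least 50% of iNSLCs for 10 of the 16, in PSC cells for 14 and in the fibroblast for 11.

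Cystatin C (CST3) averaged 265 in iNSLCs and 135 in PSC cells. Glutamine synthetase (GLUL), the enzyme that clears glutamate taken up by astrocytes, averaged 60.1 in iNSLCs and 17.99 in PSC cells. The lipid carrier APOE averaged 135 in iNSLCs and 294 in PSC cells, and the gap junction protein GJA1 averaged 32.7 in iNSLCs and 125 in PSC cells. KCNJ10, the potassium channel of mature astrocytes, was read in 7 iNSLCs at a mean of 0.406, against 6.11 in PSC cells. Its log2 ratio was -2.34, but it fell below the filter and is not among the genes counted.

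Of 13 genes that act in the switch from neuron to glia production, 11 passed the filter. Of these, 4 were at least 4-fold higher in iNSLCs, beside 5.33% of all compared genes, and 1 was 4-fold lower, beside 8.59%, with a median log2 ratio of 0.80. SOX9, a transcription factor of the gliogenic switch, was read in 58 of 65 iNSLCs and averaged 23.7 in iNSLCs, 0.675 in PSC cells and 1.62 in the fibroblast. ZBTB20, a repressor that promotes astrocyte formation in mice, averaged 20.6 in iNSLCs, 1.09 in PSC cells and 17.4 in the fibroblast. BMPR1B, a receptor for bone morphogenetic proteins, averaged 20.3 in iNSLCs and had no read in PSC cells, at least 31.4-fold higher at the floor.

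NFIA, which follows SOX9 in the induction of glia in mouse and chick, went the other way. It was read in 6 of 65 iNSLCs (9.23%) at a mean of 0.295 and in all 5 PSC cells at 3.78 to 31.6, a log2 ratio of -3.76. Its relative NFIB was read in 3 iNSLCs, and averaged 0.0554 in iNSLCs and 1.08 in PSC cells. STAT3, which turns on GFAP in response to cytokines, averaged 82.0 in iNSLCs and 43.2 in PSC cells, and it was read in all 65 iNSLCs, of which 1 held GFAP.

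**Figure D4:**
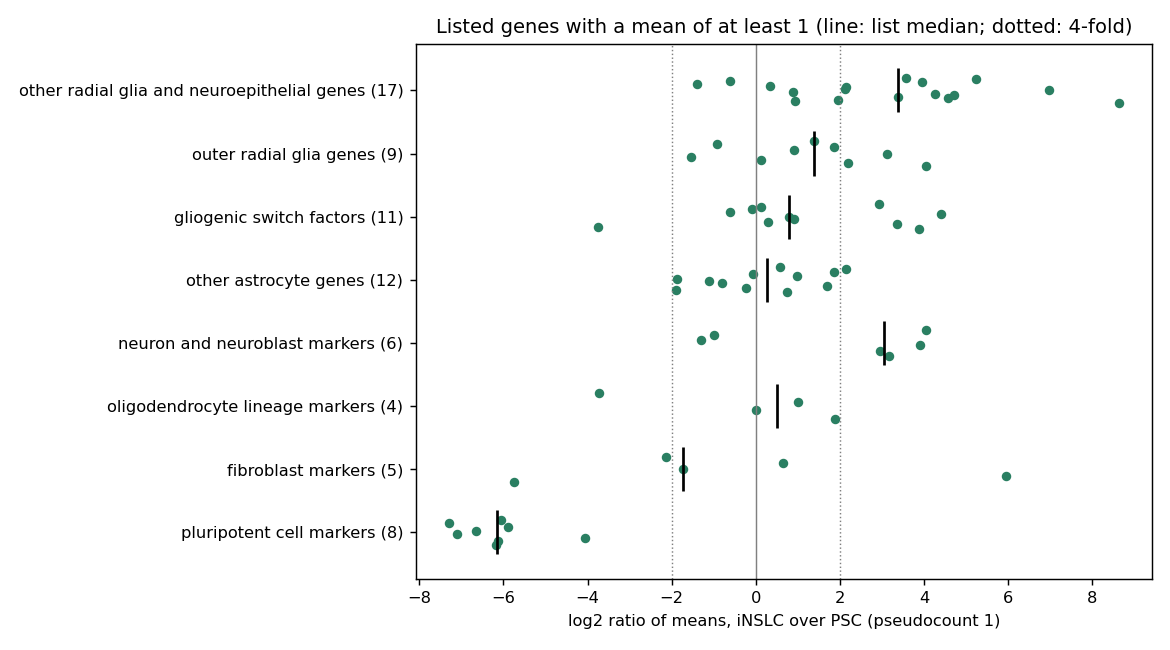
Log2 ratio of the mean in iNSLCs over the mean in PSC cells with a pseudocount of 1 (x axis) for the genes of 8 lists that passed the filter on low values, with 1 point per gene, the number of genes in brackets, the list median as a black line and the 4-fold limits dotted. The further radial glia genes have a median of 3.39, the further astrocyte genes one of 0.26, and all 8 pluripotent cell markers lie beyond 4-fold lower. The sign of the astrocyte median turned with the processing.

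Relatives of FABP7, SLC1A3 and S100B were mostly not higher in iNSLCs. FABP5, a fatty acid carrier of many tissues, averaged 8.19 in iNSLCs and 10.8 in PSC cells, and FABP3, the heart form, averaged 3.50 in iNSLCs and 3.52 in PSC cells. Neither of these FABP relatives passed 4-fold, and no other passed the filter. Among the glutamate and neutral amino acid transporters, SLC1A4 averaged 28.0 in iNSLCs and 24.7 in PSC cells, and SLC1A5 averaged 6.42 in iNSLCs and 23.8 in PSC cells. SLC1A1, a neuronal glutamate transporter, was read in 21 iNSLCs at a mean of 3.15 and in no PSC cell, at least 4.87-fold higher at the floor. S100A11, a calcium-binding protein of many cell types, averaged 4.14 in iNSLCs, 108 in PSC cells and 619 in the fibroblast. Of the 3 S100 genes that passed the filter, none was 4-fold higher in iNSLCs and S100A11 was 4-fold lower. The shares of all compared genes were 5.33% and 8.59%.

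Markers of other neural cells were read beside the members. Of 6 neuron and neuroblast markers with a row, 4 were at least 4-fold higher in iNSLCs and none was 4-fold lower. The shares of all compared genes were 5.33% and 8.59%. The median log2 ratio of the 6 was 3.06. The microtubule protein doublecortin (DCX) was read in 52 of 65 iNSLCs and averaged 25.9 in iNSLCs and 1.99 in PSC cells. ELAVL3 and RBFOX3 went the other way. ELAVL3 averaged 4.85 in iNSLCs and 13.5 in PSC cells, and RBFOX3 averaged 0.899 in iNSLCs and 2.77 in PSC cells. The summed level of the 6 markers was 4.34 to 463 in iNSLCs with a median of 55.5, 0 to 47.4 in PSC cells and 10.9 in the fibroblast. Of 5 oligodendrocyte markers with a row, 4 passed the filter. None of these 4 was 4-fold higher in iNSLCs and 1 was 4-fold lower, beside 5.33% and 8.59% of all compared genes. The part of neuronal cells in the spread of the radial glia genes was not tested.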

How the data were processed

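The authors deposited a signal per gene and cell, namely counts that they had normalized with a factor of its own for each cell. Seurat 3.0.0, featureCounts 1.5.1, STAR 2.6.0c and Trimmomatic are named, without their roles, in the submitters' processing notes. Genome build and annotation: not given in the sources used here. All values of a cell were whole multiples of 1 read (tolerance 0.02), from which reads were recovered. The row without a gene name (at most 0.449% of a cell's total) was left out.

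Ratios were log2(mean + 1) in iNSLCs minus that in PSC cells, and 4-fold was the limit for a call. Genes compared had a mean of at least 1 over all cells of both groups, most of which were iNSLCs. Shares have exact Clopper-Pearson and read sums exact Poisson intervals at 95%, which cover counting error only. A group without reads was set to a floor of 3 reads, and a share of 0 has 3 cells over the number of cells as its limit. Shares count cells with a read, not cells that express a gene. The ratios were tested on simulated counts, with changes planted in genes well above the floor. Thinning and the intervals were checked apart from this. The filter, the calls, the floors and genes near 0 were not tested in this way. Python 3.11.15, pandas 2.3.3, numpy 2.4.6, scipy 1.17.1 and matplotlib 3.10.9 were used.

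The 8 genes and the lists were chosen with earlier results of these data known. All members were named, with up to 4 genes of each other list with the highest iNSLC mean, up to 2 with the lowest ratio, and the 3 genes most like each widely read member. TNC and POSTN were named after their values were seen, and a few listed genes are not reported here. Of ependymal and endothelial markers 1 gene each passed the filter and was 4-fold lower, beside 8.59% of all compared genes. No microglia marker passed the filter. Alternatives were another pseudocount, filter, scaling, summary or read limit, thinning with seed 20, removal of shallow cells, both sets of cell numbers and leaving out each PSC cell. The filter on the average of group means, the thinned or scaled means by cell number, and the comparison of cells with an astrocyte read within the higher-numbered cells, were added after the data were seen.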

Additional observations from a re-analysis of the deposited data

Results flagged for a closer look

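SLC1A3 in ESC 14 was at 19.99, apart from the other 3 ESCs at 0, 0 and 3.24. Its gap to the nearest of them was 0.838 of the range of the 4 cells, over the limit for 1 stray value among 4. The 4 members with reads in ESCs were examined in this way. Chance marks about 1 group in 20 for normally spread values, and this rate was not checked for sparse counts such as these. ESC 14 held 464547 reads and also had ALDH1L1 at 14.2 and FABP7 at 0.833.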

How the results depend on the processing

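No group was replicated over cultures, so nothing here measures culture spread, and the PSC values rest on 5 cells. A change was judged against the larger SD over cells of the 2 groups for ratios, the SD of a list's median over PSC cells for medians and the 95% interval for shares. No paired analysis was possible because the groups share no replicate numbers and no test between groups was made. Of the main results under an alternative, 93 stayed within these limits and 21 did not, and no ratio turned round beyond them. For single genes these numbers were 157 and 11. These limits are mostly spreads over cells and are wide, so staying within them does not show that a result is stable. The SLC1A3 ratio of 2.56 without ESC 14 and the further astrocyte median of -0.50 with medians over cells both stayed within them. Some ratios could not change, such as those of HOPX, GFAP and S100B, without a PSC read, when a PSC cell was left out.

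FABP7 was the 1 gene at least 4-fold higher; the count was 0 with a pseudocount of 10, where its ratio was 1.41, and 1 to 2 when each PSC cell was left out, being 2 without ESC 14. The count 4-fold lower was 0, and 1 (ALDH1L1) with no filter, without the 7 iNSLCs with the fewest genes, in the iNSLCs numbered 56 or below, in those numbered 57 or above, and with the filter on the average of group means. With a pseudocount of 10 the ALDH1L1 ratio was -1.24. Leaving out each PSC cell gave -0.30 to 0.22 for PROM1.

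The median of the further radial glia genes was 1.68 with a pseudocount of 10. That of the outer radial glia genes was 0.32 with a pseudocount of 10, 0.47 with a mean of at least 10, 0.22 with medians over cells, 2.07 after thinning and 1.95 in iNSLCs numbered 56 or below.

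The share of iNSLCs with more radial glia than astrocyte genes was 100% with at least 2 reads, 90.8% with a value of at least 10, 100% after thinning and 100% in iNSLCs numbered 56 or below. The share with an astrocyte read was 4.62% with at least 2 reads, 1.54% with a value of at least 10 and 0% in iNSLCs numbered 56 or below. The median number of radial glia genes per iNSLC was 3, and 2 with a value of at least 10. S100B had at least 2 reads in 3.08% of iNSLCs.

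Over all genes, the 749 higher and 1206 lower became 126 and 340 with a pseudocount of 10, 482 and 352 with a mean of at least 10, 756 and 2136 with medians over cells, and 941 and 835 after thinning.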
